A study of Mus musculus with 24 samples.

Results

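The miR-29 family is represented in these data by 4 precursors, mmu-mir-29a, mmu-mir-29b-1, mmu-mir-29b-2 and mmu-mir-29c, which were taken by name from the 1187 precursors of the deposited count tables. All 4 were found, and the species prefix is dropped below. They were measured in BV2 cells, an immortalised mouse microglial line, and in the extracellular vesicles (EVs) released by the cells. Cultures were untreated controls or were given one of lipopolysaccharide (LPS, the bacterial ligand of Toll-like receptor 4) at 100 ng/mL, TGF-β (transforming growth factor beta) at 50 ng/mL or IL-10 (interleukin-10) at 50 ng/mL, each for 72 h. Cells and EVs of the 4 conditions gave 8 groups with 3 libraries each. The tables count reads per precursor and do not separate the arms of a hairpin. Separate cultures are not mentioned in the labels, and every p-value here therefore refers to the spread among these libraries, part of which may be technical. Numbers 1 to 3 name the libraries of a group and link none of them across groups.

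The 3p products of miR-29 pair with messenger RNAs of collagens and other matrix proteins and of the de novo DNA methyltransferases, and their loss is known from fibrosis of heart, liver, lung and kidney, where TGF-β lowers them. In brain the family rises as neurons mature. The precursors are transcribed as pairs, mir-29b-1 with mir-29a and mir-29b-2 with mir-29c, each pair from a common primary transcript.

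The mature 3p sequences from RefSeq (build GRCm38.p6) show why the members are hard to tell apart in sequencing reads. The capitals mark the seed, bases 2 to 8, which selects targets.
miR-29a-3p: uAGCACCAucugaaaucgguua
miR-29c-3p: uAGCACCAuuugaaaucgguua
miR-29b-3p: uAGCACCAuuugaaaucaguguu
Of 1679 mature mouse miRNA names in the RefSeq table, these 3 alone carried the seed AGCACCA. Counted from the 5′ end, miR-29a-3p and miR-29c-3p differ by C10U alone. From miR-29c-3p to miR-29b-3p the changes are G18A, U21G and A22U, and miR-29b-3p is 23 bases long where the others have 22. A read that stops before base 18 therefore fits miR-29b-3p and miR-29c-3p equally. The hexamer AGUGUU at the 3′ end of miR-29b-3p, known from human cells as a nuclear import element, closed 2 of the 1679 sequences (0.119%), the other being miR-92b-5p. The letters GGAG, a motif linked to sorting of human miRNAs into EVs, were searched in the mature strand. They were in 238 of the 1679 sequences (14.2%) and in none of the 7 mature products of the miR-29 hairpins.

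The hairpins are shown with the 3p product in capitals, because the counts are per hairpin and the 29b hairpins share that product.
mir-29a: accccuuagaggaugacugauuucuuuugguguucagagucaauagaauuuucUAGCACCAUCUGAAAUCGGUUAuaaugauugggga
mir-29b-1: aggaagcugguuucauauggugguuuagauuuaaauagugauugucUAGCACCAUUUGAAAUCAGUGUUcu
mir-29b-2: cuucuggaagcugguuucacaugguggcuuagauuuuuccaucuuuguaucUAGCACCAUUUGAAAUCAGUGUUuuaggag
mir-29c: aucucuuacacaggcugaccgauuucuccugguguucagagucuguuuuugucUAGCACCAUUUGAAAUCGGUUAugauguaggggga
In GRCm38, mir-29a lies at chr6:31062660-31062747 and mir-29b-1 at chr6:31063023-31063093, both on the minus strand and 275 bases apart. On chromosome 1, mir-29b-2 at chr1:195037040-195037120 and mir-29c at chr1:195037547-195037634 are on the plus strand, 426 bases apart. GENCODE places both chromosome 1 hairpins within an exon of the non-coding transcript A330023F24Rik, and on the opposite strand within an exon of Cd46, a protein-coding gene. On chromosome 6, mir-29b-1 overlaps the end of the lincRNA Gm27019. The longest run shared by the 29b hairpins was 25 bases and covers the whole 3p product.

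Totals ranged from 185400 to 409969 counts in cells and from 15071 to 28727 in EVs. Of these, the family had 357 to 601 reads in cells and 1 to 56 in EVs. At 0 reads a precursor could still make up 0.00162% of the shallowest library of cells and 0.0199% of that of EVs. Such limits and the intervals below account for counting error only, as the counts include PCR duplicates. Ranked by mean CPM (counts scaled to a common library total) in control cells, mir-29a was at 88, mir-29c at 141, mir-29b-1 at 167 and mir-29b-2 at 174 of 1187. Summed myeloid markers (5 precursors) held 1175 to 11053 counts in cells. Red cell, liver and muscle lists held 0 to 4 counts, epithelial ones 2 to 14 and neuronal ones 30 to 94. Scaled, the myeloid sum was 40960 to 47280 CPM in LPS cells and 4149 to 6058 CPM in the other cells. Its members did not move together with LPS. mir-146a (log2 difference from control 5.63) and mir-342 (1.73) were higher, and mir-511 (-1.78) and mir-223 (-0.66) lower. In EV libraries the myeloid list had 9 to 162 counts, with mir-223 and mir-511 at 0 in each EV group, the epithelial list 6 to 158, the muscle list 5 to 25, the neuronal list 0 to 78 and the red cell list 0 to 25, and mir-122 of liver was at 0.

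The counts of the 29b copies ran side by side. In control cells mir-29b-1 had 58, 49 and 70 reads and mir-29b-2 had 49, 36 and 60. After LPS the numbers were 70, 70 and 68 against 60, 68 and 63, and after TGF-β 28, 40 and 33 against 22, 35 and 27. In each of the 12 cell libraries mir-29b-1 exceeded mir-29b-2, by 2 to 14 reads, and the ratio of their counts was 1.03 to 1.45. Other numbered precursors that share a mature sequence also had close counts. Over the cell libraries 15 such pairs with a mean of at least 10 counts had summed ratios of 0.786 to 1.05, with mir-24-1 and mir-24-2 at 62406 and 62810 counts. The summed ratio of the 29b copies was 1.18 (662 and 562 counts), above that range as numbered. Without regard to which copy comes first, the copies of mir-692 (5668 and 7213 counts) and mir-365 (384 and 458) were more unequal. How reads that fit both copies were assigned was not given in the sources used here. If a read was counted for both, the 29b copies are a single measurement and their sum counts such a read 2 times, so the copies are not read below as independent evidence, nor their changes as belonging to one locus.

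**Figure D1:**
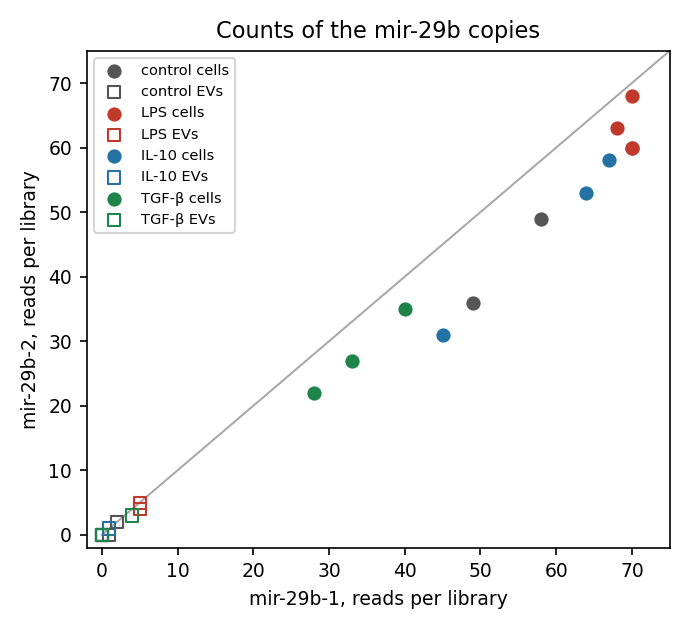
Reads of mir-29b-1 (x axis) and mir-29b-2 (y axis) in each library, filled circles for cells and open squares for EVs, with the line of equality. All cell libraries lie just below the line, and a control and an LPS library share the point at 70 and 60 reads; EV libraries have 0 to 5 reads of either copy.

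In cells, LPS went with higher levels of all 4 precursors in normalised CPM. The 29b copies rose most, but their ratio to mir-29a plus mir-29c, tested below, did not pass. mir-29a, the most abundant member, was at 666, 693 and 810 normalised CPM in control libraries and 1387, 1053 and 1165 after LPS, which is 1.67-fold higher (log2 0.74 ± 0.15, SE; edgeR adjusted p = 0.000545). mir-29c, its close relative in sequence, had 277, 216 and 308 normalised CPM in controls and 466, 336 and 495 after LPS, a log2 rise of 0.71 ± 0.19 (edgeR adjusted p = 0.00568). In both members the LPS libraries lay above the control libraries without overlap.

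mir-29b-1 stood at 159, 115 and 212 normalised CPM in controls and at 358, 444 and 370 after LPS, 2.43-fold higher (log2 1.28 ± 0.21, edgeR adjusted p = 2.75e-05). mir-29b-2 had 134, 84.3 and 181 in controls and 307, 432 and 343 after LPS, 2.73-fold higher (log2 1.45 ± 0.24, edgeR adjusted p = 5.14e-05). Groups were again apart, and with the copies summed into 1 row the log2 rise was 1.36 ± 0.20 (edgeR adjusted p = 6.81e-06). Thus 4 of 4 precursors were called higher, that is, with a Benjamini-Hochberg adjusted p under 0.05 in edgeR's quasi-likelihood test, against 20.8% of the 259 precursors tested. All 4 also had LPS libraries wholly above the controls in normalised CPM, against 25.1% of those tested. The median log2 difference of the family was 1.01 and that of all tested precursors 0.09.

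These sizes depend on scaling. With library totals in place of TMM factors, which centre on the bulk of precursors, the median of all tested precursors moved from 0.09 to -0.32, and calls over all precursors went from 54 higher and 29 lower to 30 higher and 100 lower. On that scale mir-29a (log2 0.32, edgeR adjusted p = 0.109) and mir-29c (0.29, edgeR adjusted p = 0.268) were no longer called, while mir-29b-1 (0.86) and mir-29b-2 (1.03) were. The groups also overlapped there for mir-29a and mir-29c. LPS library 2 was at 895 and 286 CPM of the library total, against 928 and 353 in control library 3. Relative to the median of all tested, mir-29a was 0.65 higher with TMM and 0.64 with library totals, and mir-29b-2 was 1.36 and 1.34 higher. A change of scaling moves nearly all precursors by a like amount. The closeness of these values therefore follows from subtracting the median and is no check of the rise. The mir-29c call also rested on control library 2, the lowest of its group, without which its log2 rise was 0.45 (edgeR adjusted p = 0.0708).

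**Figure D2:**
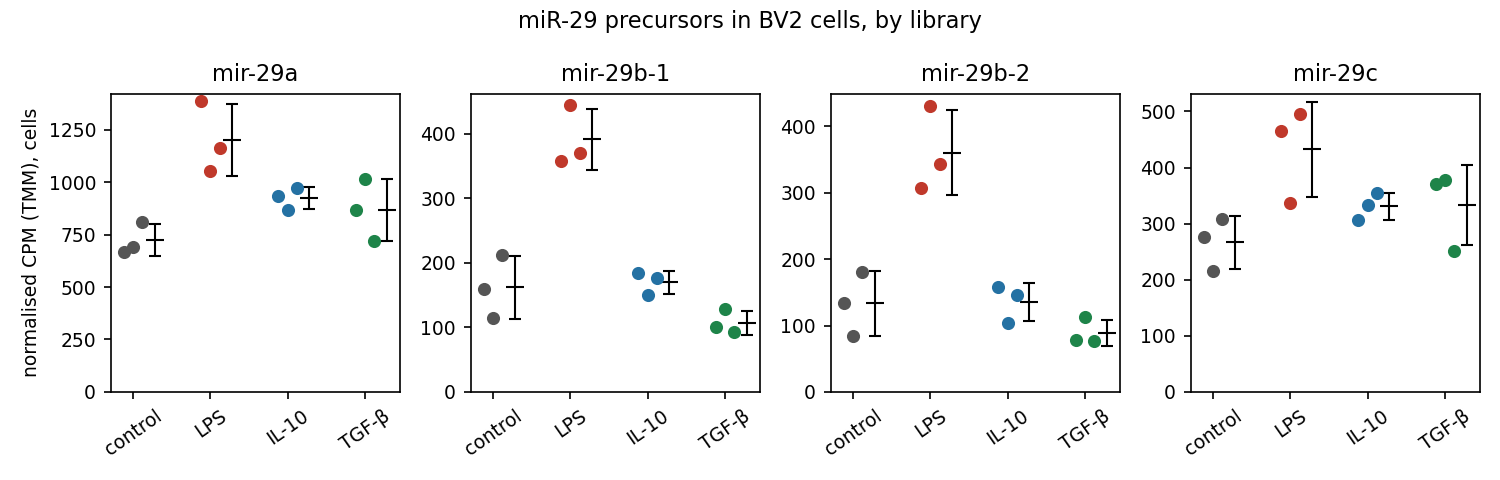
Normalised CPM (TMM) of the 4 precursors in each cell library by treatment, with the mean and SD of 3 libraries beside the points. LPS libraries lie above the control libraries in each panel; the 29b copies are lowest after TGF-β, where mir-29a and mir-29c are not.

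IL-10 left the 29b copies near their control level. mir-29b-1 had 183, 150 and 176 normalised CPM and mir-29b-2 159, 103 and 145 after IL-10, with values inside or close to the control range and log2 differences of 0.09 ± 0.21 and 0.06 ± 0.25. mir-29a had 936, 868 and 974 normalised CPM, above each control library as were 22.4% of precursors tested, with a log2 difference of 0.36 ± 0.15 that did not pass (edgeR adjusted p = 0.12). For mir-29c the values were 307, 333 and 354, of which the first lay inside the control range (log2 0.32 ± 0.18, edgeR adjusted p = 0.257). No member was called by edgeR, against 7.72% of precursors tested, and mir-29a was the 1 member with an unadjusted p under 0.05; DESeq2 called 0. The signs of the 29b values were not stable, since with library totals they were -0.12 and -0.15.

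After TGF-β none of the 4 members was called against control cells. mir-29a had 869, 1015 and 720 normalised CPM and mir-29c 370, 378 and 251, with log2 differences of 0.26 ± 0.15 and 0.32 ± 0.18 from control, both overlapping the controls. mir-29b-1 had 99.7, 128 and 92.9 normalised CPM (log2 -0.58 ± 0.23, edgeR adjusted p = 0.122) and mir-29b-2 78.4, 112 and 76.0 (log2 -0.56 ± 0.27, edgeR adjusted p = 0.206). Their highest TGF-β library lay above the lowest control library, control library 2, and without that library both copies were called lower (log2 -0.86, edgeR adjusted p = 0.0144, and -0.89, edgeR adjusted p = 0.035). With every library kept, edgeR called none of the 4, against 6.56% of precursors tested, and DESeq2 called 0. The unadjusted edgeR p was under 0.05 for mir-29b-1 alone (0.018), with mir-29b-2 close to it (0.0516). With the copies summed into 1 row the log2 difference was -0.59 ± 0.22 (edgeR adjusted p = 0.0954).

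The treatments were also compared with each other, without the control libraries as reference. LPS exceeded TGF-β by 3.64-fold for mir-29b-1 (log2 1.86 ± 0.22, edgeR adjusted p = 3.83e-07) and by 4.03-fold for mir-29b-2 (2.01 ± 0.26, edgeR adjusted p = 1.54e-06), the widest gaps of the family. For mir-29a the gap was 0.47 ± 0.15 (edgeR adjusted p = 0.0185) and for mir-29c 0.40 ± 0.19, which was not called (edgeR adjusted p = 0.108). Called higher were therefore 3 of 4, against 18.1% of precursors tested. The mir-29a call was lost without LPS library 1 (log2 0.37, edgeR adjusted p = 0.113), without TGF-β library 3 (0.34, edgeR adjusted p = 0.0896), with library totals (0.22, edgeR adjusted p = 0.299) and with no filter on low counts (0.39, edgeR adjusted p = 0.0903).

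Against IL-10, LPS was higher by a log2 of 1.19 ± 0.21 for mir-29b-1 (edgeR adjusted p = 7.45e-05) and 1.39 ± 0.24 for mir-29b-2 (edgeR adjusted p = 9.27e-05). mir-29a differed by 0.38 ± 0.15 (edgeR adjusted p = 0.0429), a call lost without LPS library 1 or 3 or any 1 of the IL-10 libraries (edgeR adjusted p from 0.064 to 0.217), and mir-29c by 0.39 ± 0.18 (edgeR adjusted p = 0.0935). The mir-29a call was also lost with library totals (0.17, edgeR adjusted p = 0.441), with no filter on low counts (0.28, edgeR adjusted p = 0.327) and with the compared groups alone (0.32, edgeR adjusted p = 0.0634). The 3 calls, with the 29b copies counted separately, compare with 20.5% of tested precursors called higher. IL-10 exceeded TGF-β by 0.67 ± 0.23 for mir-29b-1 (edgeR adjusted p = 0.0495), 1 of 4 against 8.11% called higher, and by 0.66 ± 0.22 for the summed copies (edgeR adjusted p = 0.0412). That call did not last: without IL-10 library 1 or 3 or TGF-β library 1 or 3, the adjusted p of mir-29b-1 was 0.116 to 0.205. In order of level the 29b copies thus stood highest after LPS, then in control and IL-10 cells, which did not differ beyond their spread, and lowest after TGF-β, where the step down from control did not pass. mir-29a and mir-29c stood highest after LPS and lowest in control cells, with IL-10 and TGF-β levels between that did not differ beyond their spread; for mir-29c the step up to LPS from either did not pass.

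A ratio within a library does not depend on scaling between libraries. The log2 ratio of 29b reads to the reads of mir-29a plus mir-29c was -1.69, -2.19 and -1.51 in control cells. After LPS it was -1.48, -0.67 and -1.22, all above the controls, although the lowest LPS library lay close to the highest control, and the mean difference was 0.67 ± 0.31 SE (1.60-fold). After TGF-β it was -2.80, -2.54 and -2.52, all below the controls, with a difference of -0.82 ± 0.22 (0.565-fold). IL-10 gave -1.86, -2.25 and -2.05, within or near the control range, with a difference of -0.26 ± 0.23. The exact two-sided permutation p was 0.1 for LPS and for TGF-β, the smallest that 3 against 3 libraries allow, and 0.3 for IL-10; over 15 ratio tests the Benjamini-Hochberg values were 0.3, 0.3 and 0.563, so none passed.

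The ratio was also taken for each 29b copy over its neighbour on the same transcript. The copies may hold the same reads, so these are not 2 independent results. mir-29b-2 over mir-29c went up by a log2 of 0.80 ± 0.35 with LPS, without overlap, and down by 0.85 ± 0.24 with TGF-β, without overlap (exact permutation p = 0.1 each). mir-29b-1 over mir-29a went up by 0.58 ± 0.29 with LPS, where 1 LPS library lay below the highest control, and down by 0.82 ± 0.21 with TGF-β, without overlap (exact permutation p = 0.2 and 0.1). In contrast, mir-29a over mir-29c, which lie on different chromosomes, had mean log2 ratios of 1.45, 1.49, 1.49 and 1.39 in control, LPS, IL-10 and TGF-β cells, with overlap throughout (exact permutation p = 1.0, 0.9 and 0.7 against control). As shares of the family reads, the 29b copies made up 22.6 ± 4.14% in control cells (SD, n = 3). The share was 31.7 ± 6.28% in LPS, 19.5 ± 2.10% in IL-10 and 14.0 ± 1.27% in TGF-β cells. LPS library 2, the shallowest of the cell libraries, had the highest 29b share, 38.7%. Without any 1 library the LPS difference in the ratio was 0.45 to 0.85 and the TGF-β difference -1.02 to -0.68.

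**Figure D3:**
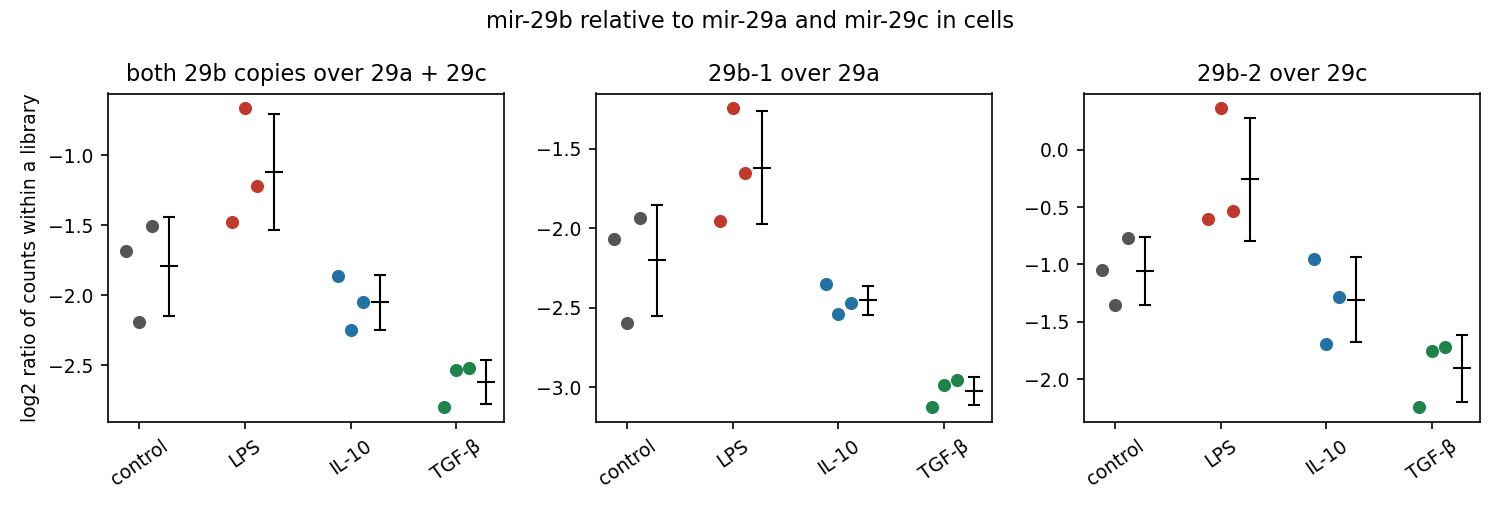
Log2 ratios of counts within each cell library by treatment, for both 29b copies over mir-29a plus mir-29c, mir-29b-1 over mir-29a, and mir-29b-2 over mir-29c, with the mean and SD of 3 libraries; each panel has its own y axis. TGF-β libraries lie below the controls in each panel, and LPS libraries above them except for 1 library in the middle panel.

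Other precursors with roles near those of miR-29 were read from lists. Of 18 precursors known to restrain fibrosis (such as mir-30, mir-26, mir-101 and mir-200 members), 12 were tested in cells, none of them a mir-200 or mir-133 member. Against control, edgeR called none of the 12 with LPS, IL-10 or TGF-β. Of all 259 precursors tested, it called 54 higher and 29 lower with LPS, 14 and 6 with IL-10, and 9 and 8 with TGF-β. The median log2 differences of the 12 were -0.04, 0.12 and 0.08, near those of all precursors (0.09, 0.05 and 0.09). Of 8 known to promote fibrosis, 6 were tested. LPS raised 2 of these, mir-155 (log2 4.06 ± 0.30) and mir-21a (2.02 ± 0.14), and IL-10 raised mir-21a (1.90 ± 0.14). TGF-β raised mir-34a (0.56 ± 0.17, edgeR adjusted p = 0.0466) and lowered mir-21a (log2 -1.03 ± 0.14, edgeR adjusted p = 4.14e-05), which is regarded as a TGF-β-induced miRNA in fibroblasts. Of 3 that, like miR-29, target DNA methyltransferases, mir-148b alone was tested and was not called with any treatment. Among 5 known targets of Toll-like receptor 4 signalling, 5 were called higher with LPS, 3 with IL-10 and 1 lower with TGF-β. Of all precursors tested, 20.8% were called higher with LPS, 5.41% higher with IL-10, 3.47% higher with TGF-β and 3.09% lower with TGF-β. mir-21a and mir-155 are in this list and in the list of fibrosis-promoting precursors, so the 2 lists are not separate results.

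The summed family was compared in pattern with 255 other precursors over the 12 cell libraries, as a description. The closest in log2 normalised CPM were mir-7a-1 (Pearson r = 0.94), mir-155 (0.93), mir-1983 (0.93), mir-146b (0.92) and mir-146a (0.92). Over the 9 libraries without LPS the values were 0.70, 0.68, 0.77, 0.75 and 0.80. The sizes were unlike: with LPS mir-146a was up by a log2 of 5.62 and mir-155 by 3.72, where the summed family was up by 0.90. The least alike were mir-669f (r = -0.85), mir-702, mir-700, mir-326 and mir-669a-1 (-0.76).

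In EVs the family was near the limit of detection. mir-29a had 5, 1 and 16 reads in control EVs, 31, 10 and 34 after LPS, 0, 1 and 1 after IL-10 and 1, 2 and 3 after TGF-β. mir-29c had 3, 1 and 4 reads in control EVs, 10, 1 and 13 after LPS, 1, 2 and 1 after IL-10 and 2, 2 and 6 after TGF-β. Control and LPS EVs overlapped in both, and LPS EV library 2, the deepest EV library with 28727 counts, held 11 reads of the family where LPS libraries 1 and 3 held 51 and 56. The 29b copies had 0 to 5 reads in any EV library. The counts are shares of a library, so they give neither the number of vesicles nor the amount of RNA per vesicle.

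Only mir-29a passed the filter on low counts for the EV comparisons, where 71 precursors were tested. Its log2 difference from control EVs was 0.27 ± 0.92 with LPS, -2.96 ± 1.25 with IL-10 and -1.37 ± 1.07 with TGF-β, and edgeR adjusted p was 0.88, 0.619 and 0.7. It was thus called in none, against 18.3% of tested precursors with LPS, 0% with IL-10 and 4.23% with TGF-β, and DESeq2 called it in none. The unadjusted edgeR p was under 0.05 for IL-10 alone (0.0344). Pooled over libraries, mir-29a took 2 of 48718 reads in IL-10 EVs and 22 of 49943 in control EVs, a ratio of 0.0932 (exact 95% interval 0.0106 to 0.379). This interval covers counting error and leaves out the spread between libraries, and control EV library 2 had 1 read, no more than the highest IL-10 library. Without control EV library 3, which held 16 of the 22 control reads, the log2 difference was -1.88 with IL-10 and -0.27 with TGF-β. The LPS value changed sign without control EV library 2 (log2 -0.21) and without LPS EV library 1 (-0.33), and with library totals it was 1.21, where the median of all tested precursors was 1.11.

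**Figure D4:**
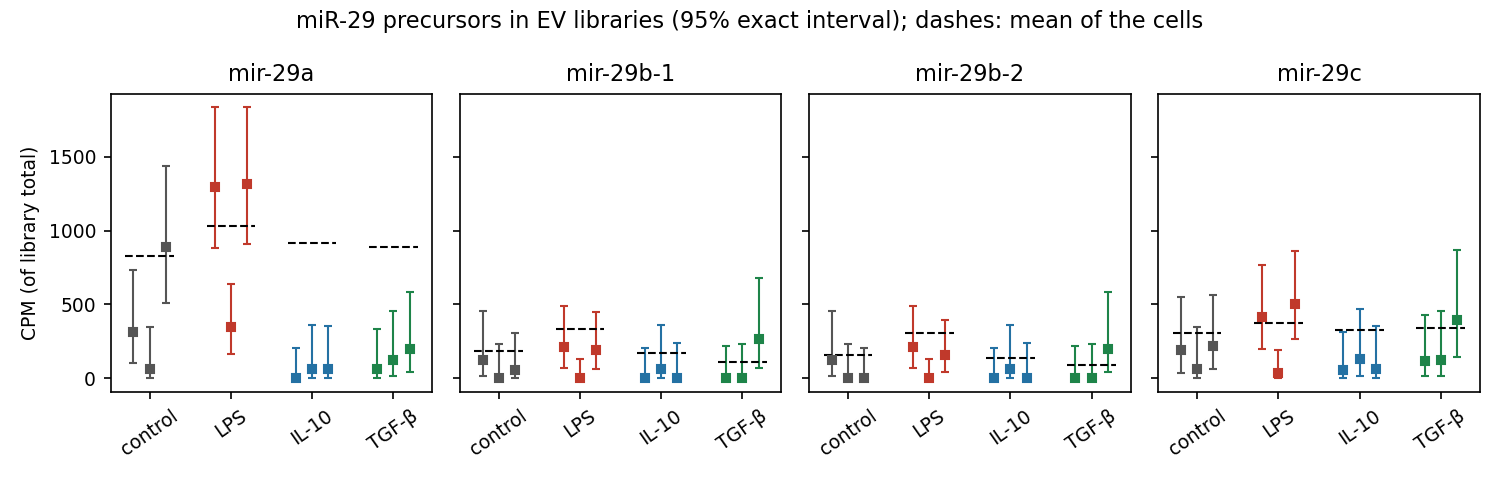
CPM of the library total for the 4 precursors in each EV library, with exact 95% intervals from counting; dashed lines give the mean of the cell libraries of the same treatment. LPS EV libraries 1 and 3 have the highest mir-29a values, and IL-10 and TGF-β EV libraries lie below the mean of their cells for mir-29a.

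EVs were set against cells of the same treatment, and the direction of the family depended on scaling. mir-6236, an annotated precursor, took 49.9 to 79.5% of EV counts and 0.574 to 1.63% of cell counts, so a share of all reads and a share of the other reads differ widely. The family took 0.0125 to 0.116% of reads in control EVs and 0.115 to 0.173% in control cells. Without mir-6236 and mir-6240 in the totals, these became 0.0828 to 0.600% and 0.116 to 0.175%. With TMM, mir-29a was higher in EVs than in cells for control (log2 1.22 ± 0.48, edgeR adjusted p = 0.0442) and LPS (1.11 ± 0.35, edgeR adjusted p = 0.0182), but with library totals the values were -0.92 and -0.08. In IL-10 samples mir-29a was lower in EVs with both (-2.39 ± 0.92, edgeR adjusted p = 0.0385, and -4.45), and in TGF-β samples it was not called with TMM (-0.31 ± 0.71, edgeR adjusted p = 0.751) but was called lower with library totals (-2.80, edgeR adjusted p = 0.000505). The median of all precursors tested in TGF-β samples was -0.75 with TMM and -2.99 with library totals, below mir-29a in both.

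mir-29c was called higher in TGF-β EVs than in TGF-β cells with TMM (1.82 ± 0.61, edgeR adjusted p = 0.0169), whereas library totals gave -0.68. That call rests on 2, 2 and 6 reads in TGF-β EVs. mir-29c and the 29b copies passed the filter here only in the fit shared with the deeper cell libraries, not in EV libraries alone. In control, LPS and IL-10 samples mir-29c differed by 1.23 ± 0.64, 0.93 ± 0.41 and 0.08 ± 0.79 with TMM, none called. The 4 comparisons thus had 1 called member each, against 38.6, 30.7, 43.2 and 43.2% of the 280 precursors called in control, LPS, IL-10 and TGF-β. Over all precursors TMM gave 73 higher and 35 lower in control EVs where library totals gave 55 and 170, and the split moved likewise after LPS (59 and 27 to 34 and 118), IL-10 (77 and 44 to 53 and 166) and TGF-β (71 and 50 to 47 and 160). The median of all tested moved too, in controls from -0.54 to -2.67. Relative to that median, mir-29a was 1.75 higher in control EVs under both scalings and 1.11 and 1.06 higher after LPS. After IL-10 it was at -1.59 and -1.64, and after TGF-β it was 0.44 and 0.19 higher. As in cells, the closeness of the 2 scalings here follows from subtracting the median and is no check of these values.

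None of these EV calls held when each library of the groups compared was left out in turn. The control call of mir-29a was lost without any 1 of the control EV libraries, and without control EV library 3 its sign changed (log2 -0.54). The LPS call was lost without LPS EV library 1 (0.39) or 3 (1.02) and without LPS cell library 3 (0.88). The IL-10 call was lost without any 1 of the IL-10 cell libraries or IL-10 EV library 1, and the mir-29c call after TGF-β without any 1 of the TGF-β EV libraries. Leaving out a library also changed which precursors passed the filter, and with them the median of all tested. Without IL-10 cell library 1, 195 precursors were tested with a median log2 difference of -0.43, against 280 and -0.80 with all libraries. Without control EV library 1 these were 332 and -1.58, against 280 and -0.54. A lost call therefore cannot be put down to the omitted library alone. The 29b copies were not called in any treatment with TMM, where their log2 differences were between -0.96 and 2.12. With library totals 3 of the 4 members were called in IL-10 samples, and as mir-29a and mir-29c were among them (edgeR adjusted p = 5.02e-05 and 0.0179), the other was 1 of the 29b copies. Epithelial markers reached 158 counts in a TGF-β EV library, where the family had 3 to 16 reads. Of the 7 markers of that list 5 (mir-200a, mir-200c, mir-141, mir-429 and mir-205) were at 0 in each TGF-β EV library, so the counts came from mir-203 and mir-200b, and their part in the EV values was not tested.

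**Figure D5:**
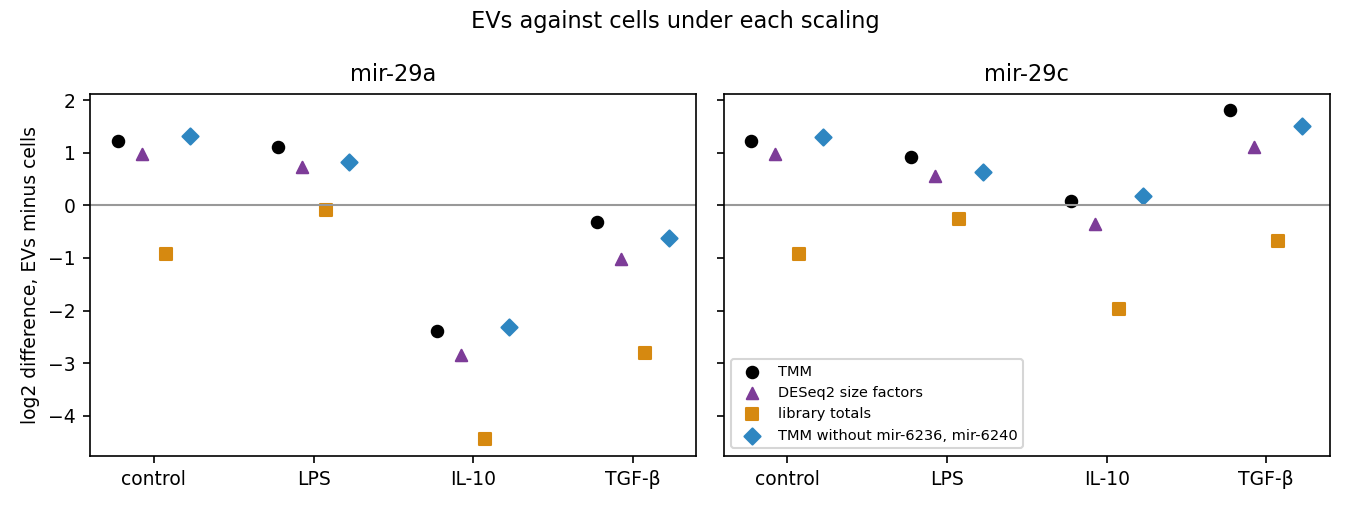
Log2 differences between EVs and cells of the same treatment for mir-29a and mir-29c, under TMM factors, DESeq2 size factors, library totals, and TMM without mir-6236 and mir-6240. Library totals give the lowest value in each treatment and put control and LPS below 0. Only mir-29a after IL-10 and TGF-β is below 0 under each of the 4 scalings. After TGF-β it was nevertheless above the median of all precursors tested, by 0.44, 0.44, 0.19 and 0.13 in the order of scalings given.

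Whether a treatment moved the family differently in EVs and in cells was tested directly as an interaction over all 24 libraries. For mir-29a the IL-10 effect was lower in EVs than in cells by a log2 of -3.61 ± 1.01, which did not pass (edgeR adjusted p = 0.131). DESeq2 put it at -3.84 with an adjusted p of 0.0229. Without control EV library 3 the edgeR value was -2.27 and without IL-10 EV library 1 it was -2.37. For LPS the mir-29a interaction was -0.11 ± 0.57 and for TGF-β -1.53 ± 0.81 (edgeR adjusted p = 0.991 and 0.476), the latter -0.57 without control EV library 3. No member was called by edgeR in the 3 interactions, against 6.07, 0 and 0% of the precursors tested for LPS, IL-10 and TGF-β. At an unadjusted p under 0.05 there was 1, mir-29a with IL-10.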

How the data were processed

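The deposited tables hold the authors' raw counts of reads per miRNA precursor, whole numbers that were not normalised. Per the labels' protocols, RNA came from cells (eluted in 40 µL) or 20 µL of EV fraction (eluted in 20 µL), and libraries used the SMARTer smRNA-seq kit with 18 PCR cycles. The submitters' processing notes name DESeq2. Aligner, build, annotation and the treatment of reads that fit several precursors were not given in the sources used here, and a kit without molecular identifiers leaves PCR copies in the counts. From the 8 deposited files 6 were used and 2 were not, and control columns repeated across the used tables were taken once. Groups came from the labels. Replicates differed beyond counting noise in each of 24 pairs.

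edgeR 4.0.16 (R 4.3.3, limma 3.58.1) was run with TMM factors, filterByExpr (minimum count 10) and the two-sided quasi-likelihood F test, in 1 fit for the 12 cell libraries, 1 for the 12 EV libraries (8 residual degrees of freedom each) and 1 for all 24 (16 residual degrees of freedom). P-values were adjusted by the Benjamini-Hochberg method over all precursors tested. Ratios used exact permutation tests, and intervals are exact Clopper-Pearson or binomial ones. The edgeR procedure was run on simulated counts for LPS against control in cells and in EVs only. The fit over all 24 libraries, the interactions and the ratio tests were not simulated. Alternatives were DESeq2 1.42.0 size factors and Wald test, library totals, no filter or a mean count of 50 (5 in EVs), a robust prior, the groups compared alone, summed 29b copies, omission of mir-6236 and mir-6240, and omission of each library. Named precursors were the 4 members, up to 4 of each list by smallest p, and the 5 most and 5 least alike in pattern. Members and lists were chosen with earlier results of these data known.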

Additional observations from a re-analysis of the deposited data

Results flagged for a closer look

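The treatment effect of IL-10 on mir-29a had opposite signs in the 2 compartments: each IL-10 cell library lay above the mean of the control cells, and each IL-10 EV library below the mean of the control EVs, in normalised CPM of the fit over all 24 libraries. The interaction was -3.61 ± 1.01 on the log2 scale and did not pass (edgeR adjusted p = 0.131). It rests on 0, 1 and 1 reads in IL-10 EVs against 5, 1 and 16 in control EVs.

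The mir-29c interaction with IL-10 was -1.15 ± 0.95 and did not pass (edgeR adjusted p = 0.705). mir-29c passed the filter in the fit over all 24 libraries but not in the fit of EV libraries alone. In the fit over all 24 libraries its highest IL-10 EV library, library 2, was at 324.5 normalised CPM against a control EV mean of 325. With EV libraries normalised on their own, that library was at 195 against a control mean of 173, so the EV direction is not stable. Its EV counts were 1, 2 and 1 with IL-10 and 3, 1 and 4 in controls.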

How the results depend on the processing

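Depth limits the EV results: 0 to 34 reads of mir-29a and 0 to 5 of each 29b copy per library allow large changes to pass unseen, and whether reads were shared between the 29b copies or with mir-29c is not given. No paired analysis was possible because the labels carry no replicate numbers that link libraries across groups. The causes of the changes below were not tested.

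Among 9 other settings, library totals left 2 of 4 members called for LPS against control in cells. For IL-10 against TGF-β in cells the count of 1 fell to 0 with DESeq2 size factors, library totals, no filter, the DESeq2 Wald test, a robust prior and without mir-6236 and mir-6240. EVs against cells, called for 1 member per treatment, went in controls to 0 with size factors, library totals, no filter and the compared groups alone. After LPS it went to 0 with size factors, library totals, no filter and without mir-6236 and mir-6240, and to 2 with the mean count filter. After IL-10 it was 3 with library totals and 0 with the mean count filter, the compared groups alone and without mir-6236 and mir-6240. After TGF-β it was 0 with size factors, no filter and without mir-6236 and mir-6240, and with library totals the 1 called member was mir-29a in place of mir-29c. The DESeq2 Wald test called 1 member in the IL-10 interaction.

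With 1 library left out, the counts ranged from 0 to 2 for TGF-β against control in cells (2 without control cell library 2), from 0 to 1 for IL-10 against TGF-β, and from 0 to 1 for EVs against cells in each of the control, LPS, IL-10 and TGF-β samples. Omission of a library also changed which precursors passed the filter, so these changes and those below do not isolate the library left out.

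Changes of sign among log2 differences were as follows. For mir-29b-2, IL-10 against control in cells gave -0.0057 with size factors, -0.15 with library totals, -0.032 with no filter, -0.022 with the Wald test, -0.014 with the compared groups alone and -0.013 without mir-6236 and mir-6240. For mir-29b-1 it gave -0.12 with library totals and -0.0034 with no filter. For mir-29c, IL-10 against TGF-β in cells gave -0.049 with library totals, -0.024 with the compared groups alone and -0.039 without mir-6236 and mir-6240. EVs against cells for mir-29c in IL-10 samples gave -0.36 with size factors, -1.97 with library totals, -0.33 with no filter and -0.37 with the Wald test. Library totals turned EVs against cells to -0.92 (mir-29a) and -0.93 (mir-29c) in controls, -0.080 and -0.26 after LPS, and -0.68 (mir-29c) after TGF-β, and the LPS interactions to 0.84 (mir-29a) and 0.67 (mir-29c). The mean count filter turned mir-29a to 0.72 in TGF-β EVs against cells, and no filter turned the TGF-β interaction of mir-29c to -0.053.

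Leaving out 1 library moved IL-10 against control in cells from -0.21 to 0.28 for mir-29b-1 and from -0.29 to 0.30 for mir-29b-2, and IL-10 against TGF-β from -0.17 to 0.11 for mir-29c and from -0.019 to 0.23 for mir-29a. LPS against control in EVs for mir-29a ranged from -0.33 to 1.29. EVs against cells ranged from -0.54 to 1.71 for mir-29a in controls, from -1.56 to 0.093 for mir-29a after TGF-β and from -0.9999 to 0.54 for mir-29c after IL-10. The LPS interaction ranged from -0.75 to 1.31 for mir-29a and from -0.90 to 0.40 for mir-29c, and the TGF-β interaction of mir-29c from -0.40 to 0.85.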
